A study of Homo sapiens with 8 samples.

Results

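RAB genes encode the largest branch of the RAS superfamily of small GTPases, and their transcripts were followed in SKBR3 cells after loss of the transcription factor FOXA1. The members are all rows of the deposited count table whose symbol is RAB, a number and at most 1 letter from A to F, with RAB27A and RAB27B left out. This gave 60 of the 30434 rows in the table, under 59 symbols, because RAB9B is listed under 2 Ensembl identifiers. The filter on low counts left 51 of these rows for testing. The SKBR3 line is a human breast cancer cell line with amplified ERBB2 (HER2). There were 4 libraries from control cells, whose genotype is labelled WT, and 4 from cells with the genotype FOXA1 knockdown, a stable line made with lentiviruses carrying 3 short hairpin RNAs against FOXA1. Both groups grew in DMEM with GlutaMAX-1, 10% fetal bovine serum and pen/strep. The labels do not say whether the control cells carried a vector, whether the stable line is 1 clone or a pool, or how the replicates were made, so p-values measure the spread between these libraries, which may be technical.

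A RAB protein works as a switch. Bound to GTP it sits on one kind of membrane and recruits effectors such as motors, tethers and fusion factors. Exchange factors (GEFs) load the GTP, GTPase-activating proteins (GAPs) end the signal, and GDI proteins carry the inactive, prenylated RAB through the cytosol. In epithelial cells different members serve the Golgi, early endosomes, recycling to the apical and basolateral surfaces, lysosomes and secretory granules. RAB25, a relative of RAB11 found mainly in epithelia, is known for its part in apical recycling and in the return of integrins to the surface of carcinoma cells.

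The 250 bases before the annotated start are shown for the 2 members at the ends of the range of change and for a copy gene that rose. RAB25 fell furthest, RAB40A had the largest fitted rise, and RAB6C holds a motif match. Sequences come from RefSeq on GRCh38.p14 and are written 5′ to 3′ on the gene's strand. Capitals mark a match to the forkhead motifs TGTTTAC and TGTTTGC or to the AP-2 motif GCCNNNGGC, searched on both strands with matches allowed to overlap.
RAB25, chr1:156060910-156061159, plus strand: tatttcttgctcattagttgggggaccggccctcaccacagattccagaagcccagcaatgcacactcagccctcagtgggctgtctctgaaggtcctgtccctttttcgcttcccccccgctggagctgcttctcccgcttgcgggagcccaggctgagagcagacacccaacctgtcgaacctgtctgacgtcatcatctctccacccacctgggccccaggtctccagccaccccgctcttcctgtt
RAB40A, chrX:103519490-103519739, minus strand: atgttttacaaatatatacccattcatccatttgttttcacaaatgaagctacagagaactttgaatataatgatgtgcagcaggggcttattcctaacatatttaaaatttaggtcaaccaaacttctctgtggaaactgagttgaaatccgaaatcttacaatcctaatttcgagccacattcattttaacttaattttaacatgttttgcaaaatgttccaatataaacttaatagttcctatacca
RAB6C, chr2:129979416-129979665, plus strand: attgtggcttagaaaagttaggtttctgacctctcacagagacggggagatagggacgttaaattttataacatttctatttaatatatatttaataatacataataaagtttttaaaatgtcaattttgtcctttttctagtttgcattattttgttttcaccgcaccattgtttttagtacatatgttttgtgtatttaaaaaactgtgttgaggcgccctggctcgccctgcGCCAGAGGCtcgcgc
RAB6C held 1 AP-2 match, and RAB25 and RAB40A held no match to these 3 motifs in this window. Over 63 windows of RAB genes, some genes having several starts and others none in the reference table, 1 held a forkhead match, and it belonged to RAB6D, which was below the filter. Among all 35116 windows of the same length 6.09% held one. AP-2 matches lay in 13 of the RAB windows (20.6%) and in 19.8% of all windows. The RAB windows had a median of 20 CpG dinucleotides, against 11 over all windows, while RAB25 and RAB6C had 8 each and RAB40A had 2.

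Library totals ran from 19087878 to 23786684 counts. Levels are given in CPM, counts scaled to 1000000 per library with TMM factors, and every ± is an SD over the 4 libraries of a group (n = 4). FOXA1 itself had 4180, 4239, 4071 and 4397 counts in control libraries 1 to 4 and 89, 87, 83 and 92 in knockdown libraries 1 to 4, and 2.06% of the control level remained. The line's markers ERBB2, KRT8, KRT18, KRT19 and EPCAM were at 170.0 CPM or above in every library. In knockdown ERBB2 and KRT19 fell (log2 fold changes -2.45 and -1.87), while KRT8, KRT18 and EPCAM rose (0.31, 0.58 and 0.33). Of markers of other cell types, the leukocyte gene PTPRC and the fibroblast gene COL1A2 had at most 3 counts and the endothelial gene PECAM1 at most 6 in any library. VWF, an endothelial marker, fell from 5.22 CPM ± 0.584 to 0.845 CPM ± 0.218 (log2 fold change -2.62). The fibroblast gene COL1A1 fell from 5.38 CPM ± 0.755 to 4.33 CPM ± 0.221, and PDGFRB, a marker of pericytes and fibroblasts, rose from 0.41 CPM ± 0.11 to 2.83 CPM ± 0.476. PDGFRB had 8, 7, 12 and 9 counts in control libraries 1 to 4. These would not have passed the filter alone, so its passing leaned on the knockdown libraries. Whether VWF, COL1A1 and PDGFRB bear on the RAB genes was not tested. In bulk RNA, fewer cells of a type and less RNA per cell cannot be told apart.

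The comparison asked how RAB transcripts differed between FOXA1 knockdown and control cells. Of the 51 tested rows, 30 were lower and 17 higher in knockdown at an adjusted p under 0.05 in edgeR's quasi-likelihood test, and 4 did not pass (RAB8A, RAB8B, RAB31 and RAB43). Calls were frequent in the whole table: 77.1% of the 16430 genes tested passed, 37.7% lower and 39.4% higher, against 58.8% and 33.3% of the RAB rows. The median log2 fold change was -0.26 over the tested RAB rows and 0.02 over all genes tested. Changes of at least 2-fold were called in 8 RAB rows that fell (15.7%) and 6 that rose (11.8%), where all genes gave 13.4% and 14.9%. These shares lie near those of all genes. The CPM of the groups did not overlap for 45 of the 51 rows, and for 72.0% of all genes. Of these, 30 RAB rows were lower and 15 higher in knockdown, against 35.0% and 36.9% of all genes. RAB transcripts summed to between 4135 and 4271 CPM in the control libraries and to between 3058 and 3143 CPM in the knockdown libraries. The plot of fold changes by compartment sets out every tested member.

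**Figure D1:**
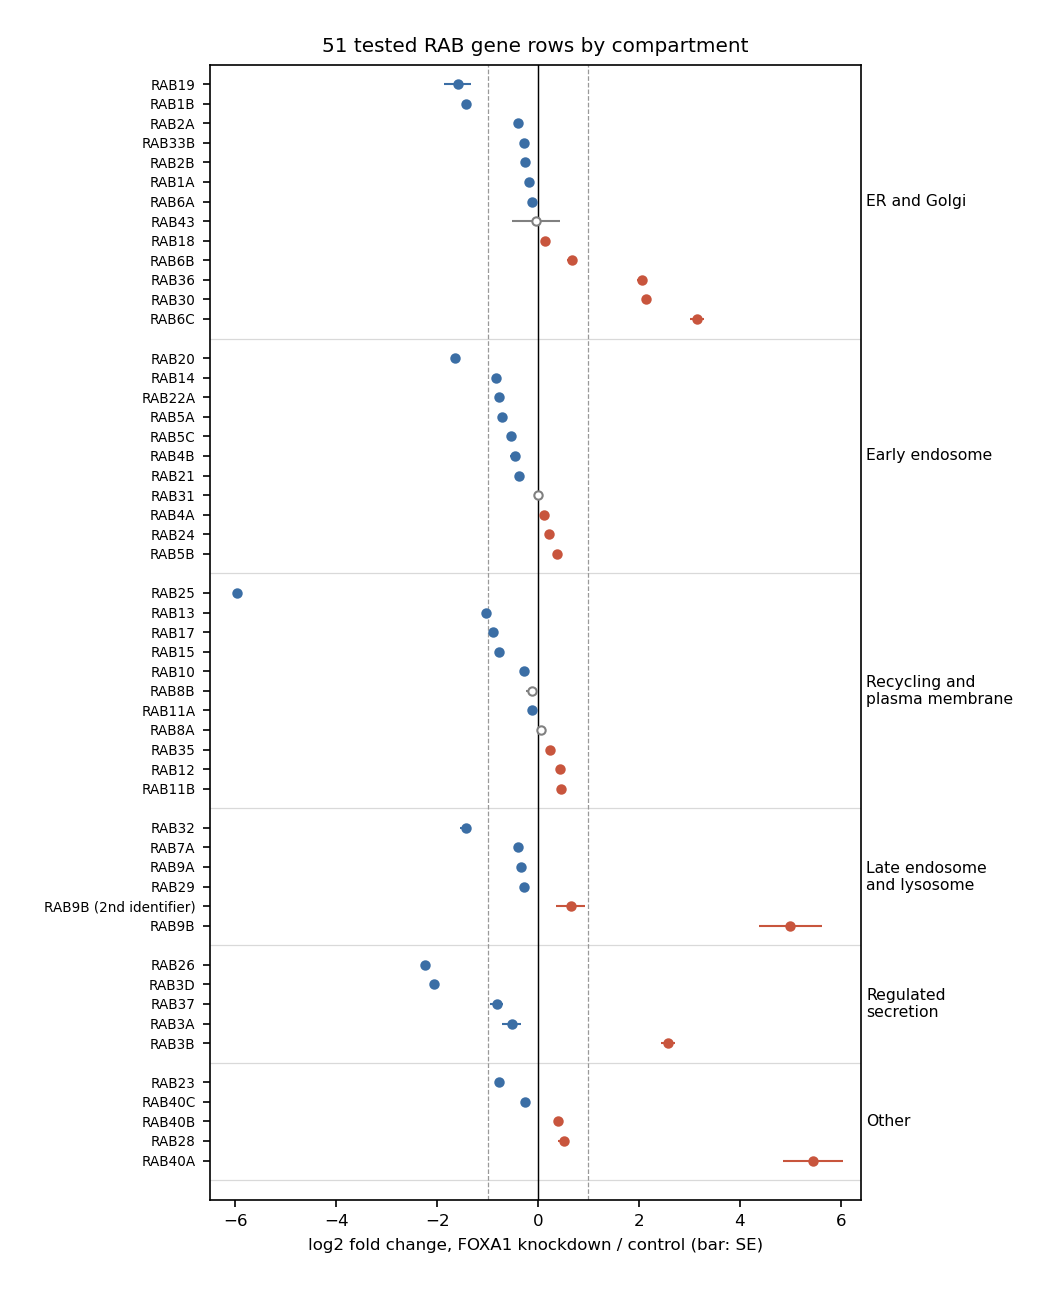
Log2 fold change (x axis, knockdown over control, bar: SE from 4 and 4 libraries) of the 51 tested RAB rows, grouped by the compartment each is best known for. Filled points passed an adjusted p of 0.05 (blue lower, red higher), open points did not, and dashed lines mark 2-fold. Fitted values of RAB9B and RAB40A depend on the prior count. RAB25 lies at -5.97, and RAB6C, RAB9B and RAB40A lie above 3.

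Of the 11 tested members that serve recycling and delivery to the plasma membrane, 6 fell (54.5%) and 3 rose (27.3%), where all genes gave 37.7% and 39.4%. No compartment was tested as a group. RAB25 (chromosome 1, 156061160 to 156070514, plus strand, GENCODE 29 on GRCh38) stood at 147, 152, 164 and 149 CPM in control libraries 1 to 4 and at 2.46, 2.79, 2.19 and 2.27 CPM in knockdown libraries 1 to 4. Every knockdown library held far less RAB25 than any control library, and 1.59% of the control level was left (log2 fold change -5.97, SE 0.0834, adjusted p = 5.48e-29). An exact two-sided permutation test of its CPM gave p = 0.0286, the lowest value open to groups of 4, as it did for every member named below whose groups did not overlap. No 31-base word of RAB25's annotated transcripts occurs in another gene's transcripts, and no other counted gene overlaps its exons. In control its level per length was 90.1 ± 4.37 CPM per kb, a spread that takes in the mean of RAB7A (87.2 ± 2.12 CPM per kb). In knockdown RAB25 was at 1.43 ± 0.157 CPM per kb against 66.3 ± 1.71 for RAB7A.

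RAB13, which acts in traffic to tight junctions, stood at 89, 91.8, 91.7 and 87.5 CPM in control libraries 1 to 4 and at 46.2, 41.2, 44.1 and 45.6 CPM in knockdown libraries 1 to 4. The groups were apart, with 49.2% of the control level left (log2 fold change -1.02, SE 0.0404, adjusted p = 6.5e-17). A stretch of 682 bp of its exons is shared with AL358472.6, a gene of the same strand that averaged 154 counts, which leaves some uncertainty in the assignment of reads. RAB17, an epithelial RAB of transcytosis, fell from 56.1 CPM ± 2.73 to 30.1 CPM ± 1.64 (log2 fold change -0.90, SE 0.0529, adjusted p = 2.18e-14). RAB15, a RAB of early and recycling endosomes, fell from 286 CPM ± 10.8 to 167 CPM ± 5.79 (log2 fold change -0.78, SE 0.0369, adjusted p = 3.93e-16). The other falls were smaller: RAB10, which directs vesicles to the basolateral surface, had a log2 fold change of -0.29 and RAB11A, the general RAB of recycling endosomes, one of -0.13. Those that rose were RAB11B (0.45), RAB12 (0.43) and RAB35 (0.23), all by less than 1.5-fold. The exocytic RAB8A and RAB8B had log2 fold changes of 0.05 (adjusted p = 0.342) and -0.13 (adjusted p = 0.302) and did not pass. The 50 nearest tested genes of RAB11A had a median log2 fold change of -0.23, and taking out this regional value turned its direction, while RAB35 lost its call. RAB11A also lost the call when scaled by upper quartile or library size alone.

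Among the RABs of regulated secretion, 4 of 5 tested members fell (37.7% of all genes did) and RAB3B rose. RAB26, a RAB of secretory granules in exocrine cells, stood at 17.7, 17.8, 17.7 and 19.5 CPM in control libraries 1 to 4 and at 3.91, 3.97, 3.72 and 3.79 CPM in knockdown libraries 1 to 4. The knockdown libraries kept 21.2% of the control level, and control library 4 was the highest (log2 fold change -2.24, SE 0.0396, adjusted p = 1.54e-18). RAB3D, which sits on the granules of exocrine cells, stood at 114, 111, 115 and 102 CPM in control libraries 1 to 4 and at 25.9, 25.8, 25.5 and 28 CPM in knockdown libraries 1 to 4. It kept 23.8% of the control level (log2 fold change -2.07, SE 0.0511, adjusted p = 2.28e-22). RAB3B stood at 1.28, 0.953, 1.33 and 0.991 CPM in control libraries 1 to 4 and at 6.29, 6.51, 6.67 and 7.68 CPM in knockdown libraries 1 to 4. It moved the other way, 5.96-fold up from a low level (log2 fold change 2.57, SE 0.137, adjusted p = 1.19e-14). RAB3A, the synaptic vesicle member, fell from 3.51 CPM ± 0.643 to 2.42 CPM ± 0.409, and RAB37, a RAB of mast cell granules, from 4.63 CPM ± 0.298 to 2.63 CPM ± 0.422. Their log2 fold changes were -0.52 (SE 0.185) and -0.82 (SE 0.126). RAB3D shares 144 bp of exons with the same-strand gene TMEM205, which averaged 639.6 counts, and 906 bp with AC011472.3 on the opposite strand. RAB3A shares 165 bp with MPV17L2 on the opposite strand, which averaged 503 counts.

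**Figure D2:**
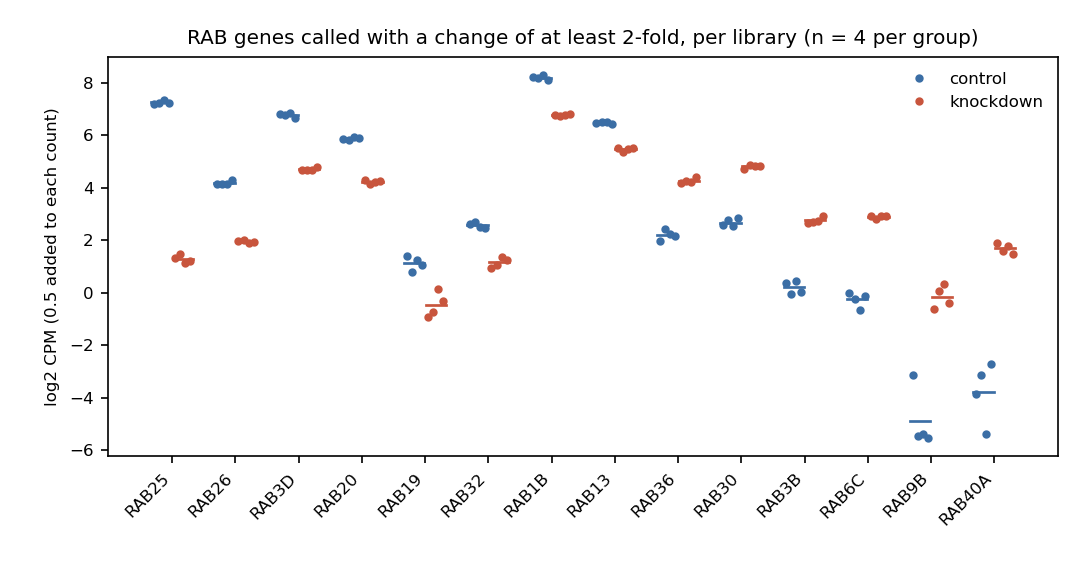
Level of each RAB row called with a change of at least 2-fold in each library, as log2 CPM with 0.5 added to each count (y axis), blue for control and red for knockdown, with a line at the mean of 4. The 8 members on the left are lower and the 6 on the right higher in all 4 knockdown libraries, and RAB9B and RAB40A were at 3 counts or fewer in every control library.

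Of the 11 tested early endosome rows, 7 fell (63.6%), 3 rose (27.3%) and RAB31 did not pass, against 37.7% and 39.4% of all genes. RAB20, a RAB of phagosomes and endosomes, stood at 57.8, 57.3, 60.7 and 59.9 CPM in control libraries 1 to 4 and at 19.8, 17.9, 18.6 and 19.3 CPM in knockdown libraries 1 to 4. The groups were apart and 32.1% of the control level was left (log2 fold change -1.64, SE 0.038, adjusted p = 4.05e-20). Its 50 nearest tested genes on chromosome 13 had a median log2 fold change of -0.53. Further falls were RAB14, which links endosomes and the Golgi, from 183 CPM ± 3.35 to 102 CPM ± 3.39, and RAB22A, which acts in recycling from early endosomes, from 162 CPM ± 5.26 to 94.5 CPM ± 3.41. Their log2 fold changes were -0.84 (SE 0.0273) and -0.78 (SE 0.0347).

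The 3 RAB5 genes, which encode the master RABs of early endosome fusion, divided. RAB5A stood at 65.1, 64.2, 55.8 and 63.9 CPM in control libraries 1 to 4 and at 37.8, 39.1, 37.2 and 37.1 CPM in knockdown libraries 1 to 4, and control library 3 was the lowest of the controls. It fell with a log2 fold change of -0.72 (SE 0.055). RAB5C fell from 563 CPM ± 22 to 387 CPM ± 13.3, while RAB5B rose from 142 CPM ± 3.39 to 185 CPM ± 6.43. The log2 fold changes were -0.54 and 0.38, with adjusted p of 3.96e-13 and 5.64e-10 by edgeR. The remaining calls ranged from -0.45 for RAB4B, a RAB of fast recycling, to 0.23 for RAB24, linked to autophagy. RAB21, a RAB of integrin endocytosis, had -0.37. RAB4A had 0.11 (adjusted p = 0.0447) and lost the call in several alternatives, among them the removal of control library 1, 2 or 4 or of knockdown library 3 or 4. RAB24 shares 926 bp of exons with the same-strand gene MXD3, which averaged 525 counts, and the direction of its change turned with the regional value taken out. RAB31, a RAB of traffic between the Golgi and endosomes, had a control mean of 124 CPM ± 3.06 and a knockdown mean of 124 CPM ± 2.52 (adjusted p = 0.983).

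Of the 13 tested members of the ER and Golgi, 7 fell (53.8%), 5 rose (38.5%) and RAB43 did not pass, against 37.7% and 39.4% of all genes. RAB1B, which with RAB1A drives traffic from the ER to the Golgi, stood at 298, 289, 315 and 277 CPM in control libraries 1 to 4 and at 109, 107, 111 and 114 CPM in knockdown libraries 1 to 4. All knockdown libraries lay below all controls, at 37.4% of the control mean (log2 fold change -1.42, SE 0.0437, adjusted p = 6.12e-21). RAB1A fell less, from 194 CPM ± 9.55 to 171 CPM ± 2.35 (log2 fold change -0.18, SE 0.0377). RAB19 fell from 2.19 CPM ± 0.384 to 0.735 CPM ± 0.252, a low level (log2 fold change -1.60, SE 0.268, adjusted p = 6.54e-07). The other falls lay between -0.39 in RAB2A and -0.11 in RAB6A, the Golgi RAB of retrograde transport. With the regional value taken out, RAB6A, RAB2B and RAB33B changed direction and RAB2A lost the call, and RAB6A lost it when scaled by upper quartile or library size alone.

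RAB30, a Golgi RAB, stood at 5.91, 6.81, 5.75 and 7.15 CPM in control libraries 1 to 4 and at 26.6, 29.3, 28.4 and 28.6 CPM in knockdown libraries 1 to 4. It was 4.41-fold higher in knockdown, with no overlap (log2 fold change 2.14, SE 0.0823, adjusted p = 5.7e-19). RAB36 stood at 3.94, 5.31, 4.65 and 4.48 CPM in control libraries 1 to 4 and at 18, 19.1, 18.8 and 21.2 CPM in knockdown libraries 1 to 4. It was 4.2-fold higher (log2 fold change 2.07, SE 0.102, adjusted p = 5.08e-17). The 50 nearest tested genes of both had medians below 0, at -0.31 and -0.28. RAB6C, an intronless copy of RAB6A, stood at 0.962, 0.817, 0.617 and 0.905 CPM in control libraries 1 to 4 and at 7.65, 7.09, 7.49 and 7.5 CPM in knockdown libraries 1 to 4. The fitted change was 3.16 (SE 0.139, adjusted p = 1.58e-16). Of the 31-base words in RAB6C's transcript, 68.6% also occur in transcripts of other genes, 61.1% in RAB6D, so its counts depend on how shared reads were assigned, and RAB6C-AS1 overlaps 803 bp of it on the opposite strand. RAB6B, the neuronal RAB6, rose from 5.62 CPM ± 0.595 to 8.95 CPM ± 0.874 (log2 fold change 0.67), and RAB18, a RAB of lipid droplets, had 0.14 (adjusted p = 0.0234). Exons of RAB6B share 381 bp with SRPRB on the opposite strand, which averaged 1269 counts. The call on RAB18 was lost without control library 3, knockdown library 1 or knockdown library 3, and its direction turned with the regional value taken out. RAB43 varied within groups, at 14.9, 5.36, 8.83 and 5.21 CPM in control and 8.42, 6.14, 13.8 and 5.23 CPM in knockdown libraries. Of its 31-base words, 78.4% also occur in the read-through gene ISY1-RAB43, which had a mean of 719 counts.

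Late endosome and lysosome members gave 4 falls (66.7%) and 2 rises (33.3%) among 6 tested rows, against 37.7% and 39.4% of all genes. Both rises are rows of the symbol RAB9B, so no other gene of this class rose among the tested rows. RAB32, a RAB of lysosome-related organelles, stood at 6.18, 6.49, 5.7 and 5.47 CPM in control libraries 1 to 4 and at 1.91, 2.05, 2.55 and 2.36 CPM in knockdown libraries 1 to 4. It kept 37.2% of the control level (log2 fold change -1.43, SE 0.109, adjusted p = 1.35e-10). RAB7A, which takes late endosomes to the lysosome, fell from 237 CPM ± 5.75 to 180.2 CPM ± 4.65, and RAB9A, a RAB of retrieval from late endosomes, from 28.7 CPM ± 1.1 to 22.6 CPM ± 1.54. Their log2 fold changes were -0.40 and -0.34, and RAB29, a RAB linked to the kinase LRRK2, had -0.29. The annotated RAB9B (chromosome X, 103822322 to 103832228, minus strand) had 2, 0, 0 and 0 counts in control libraries 1 to 4 and 15, 25, 24 and 16 in knockdown libraries 1 to 4. With every control at 3 counts or fewer, it was at least 6.65-fold higher against a floor of 3 counts per library. The other row under this symbol, ENSG00000288597, which has no position in GENCODE 29, had a log2 fold change of 0.65 (adjusted p = 0.0307 by edgeR). Its groups overlapped, and leaving out any 1 of 6 libraries (control 1, 2 or 3, or knockdown 2, 3 or 4) ended the call.

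Of the 5 tested members outside these classes, 2 fell and 3 rose, against 37.7% and 39.4% of all genes. RAB40A had 1, 2, 0 and 3 counts in control libraries 1 to 4 and 87, 73, 67 and 60 in knockdown libraries 1 to 4. This is at least 23.6-fold higher against 3 counts per library, and 15.2% of its 31-base words are shared with RAB40AL. Z69733.1, which averaged 18.6 counts, overlaps 541 bp of RAB40A's exons on the opposite strand. RAB40 proteins carry a SOCS box and recruit a ubiquitin ligase. RAB40B rose from 4.87 CPM ± 0.161 to 6.39 CPM ± 0.23, and RAB40C fell from 50.5 CPM ± 1.73 to 42.5 CPM ± 1.89. RAB23, a negative regulator of Hedgehog signalling, fell from 19.5 CPM ± 1.48 to 11.4 CPM ± 0.579 (log2 fold change -0.78, SE 0.0666, adjusted p = 2.21e-10). Its exons share 2842 bp with BAG2 on the opposite strand, which averaged 176 counts. RAB28, a RAB of cilia, rose from 8.97 CPM ± 0.929 to 12.7 CPM ± 1.47, a call that was lost with the regional value taken out (log2 fold change 0.01).

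The 9 rows below the filter were RAB6D, RAB7B, RAB33A, RAB34, RAB38, RAB39A, RAB39B, RAB41 and RAB42. RAB39A had 1, 0, 1 and 0 counts in control and 10, 18, 14 and 10 in knockdown libraries. RAB38 had 1, 1, 1 and 0 counts in control and 6, 9, 4 and 7 in knockdown libraries, and RAB39B had none in control and 5, 7, 5 and 6 in knockdown. RAB7B had 4, 3, 8 and 3 in control and 10, 14, 12 and 14 in knockdown. In these 4 genes every knockdown library had a higher CPM than every control, and they are given as counts because they lay below the filter. How often other genes below the filter show this was not computed, so these 4 cannot be set against a share. With no filter, 21 RAB rows were called higher and 10 of them at least 2-fold, against 17 and 6. In that fit 49.4% of all 30434 genes were called in either direction, and their shares by direction and size were not taken. The remaining RAB rows below the filter had at most 9 counts in any library. At these depths 3 counts correspond to between 0.123 and 0.153 CPM. RAB9B and RAB40A passed the filter through their knockdown libraries alone, so their direction was fixed once they had passed.

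The make-up of each lettered set was described as shares of counts per kb of annotated exons within a library, a measure that library scaling does not touch. No test was made. RAB1B made up 71.5% ± 2.0 in control and 51.5% ± 0.92 in knockdown of RAB1. Without division by length RAB1B held 60.3% in control and 39.2% in knockdown, so which RAB1 gene led in knockdown depends on the length used. RAB3D made up 92.6% ± 0.99 in control and 76.3% ± 2.1 in knockdown of RAB3, and RAB3B 0.327% ± 0.04 in control and 6.77% ± 0.45 in knockdown. Undivided counts gave RAB3B 0.987% and 19.1%. RAB3D remained the main RAB3 transcript in all 8 libraries. RAB5B went from 8.95% ± 0.25 to 15.8% ± 0.3 of RAB5, with RAB5C the main member in both groups. RAB11B made up 30.7% ± 1.1 in control and 39.7% ± 1.0 in knockdown of RAB11. RAB40C had 93.8% ± 0.41 in control and 84.7% ± 1.3 in knockdown of RAB40. RAB40A went from 0.131% ± 0.11 to 6.69% ± 0.92 and RAB40B from 6.11% ± 0.31 to 8.61% ± 0.53. Since RAB40A passed the filter through its knockdown libraries alone, its part of this shift was fixed once it had passed. RAB6C had 0.606% ± 0.097 in control and 5.54% ± 0.11 in knockdown of RAB6, subject to the shared sequence given above. The groups overlapped in none of these shares, nor in those of RAB2, RAB4 and RAB9. The RAB9 shares include RAB9B, which passed the filter through its knockdown libraries alone. For RAB8 the groups did overlap: RAB8A had 92.8% ± 0.94 in control and 93.6% ± 0.22 in knockdown. Among all genes tested, the CPM of 72.0% did not overlap between groups. How often such shares overlap in other gene sets was not computed.

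**Figure D3:**
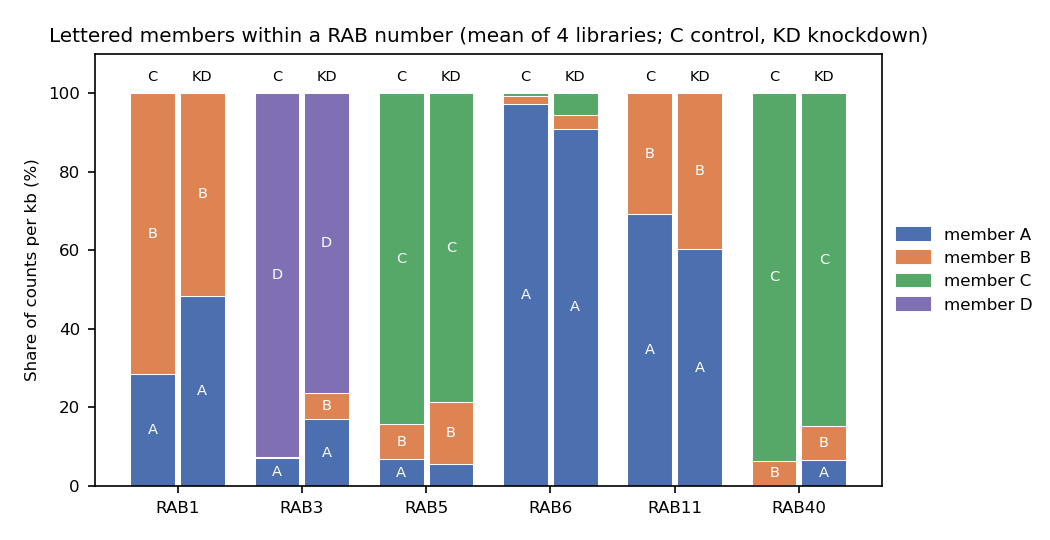
Share of counts per kb (y axis, percent, mean of 4 libraries) held by each lettered member within 6 RAB numbers, control (C) beside knockdown (KD). RAB1B drops from 71.5% to 51.5% of RAB1, and RAB3A and RAB3B take a larger part of RAB3 in knockdown. The level of RAB3A itself fell (log2 fold change -0.52), while that of RAB3B rose (2.57).

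Ordered by level per length, the control libraries were led by RAB5C at 204 ± 7.97 CPM per kb, then RAB1B at 147 ± 7.97, RAB25 at 90.1 ± 4.37, RAB7A at 87.2 ± 2.12 and RAB10 at 76.4 ± 2.05. RAB25 and RAB7A did not differ beyond their spread. In knockdown RAB5C led at 140.0 ± 4.82 CPM per kb, followed by RAB7A at 66.3 ± 1.71, RAB10 at 62.7 ± 1.39, RAB1B at 55 ± 1.5 and RAB1A at 51.8 ± 0.71. RAB25 thus left the leading group while the widely expressed endosomal and secretory members stayed in it. Lengths are unions of annotated exons, so the order is approximate.

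Fold changes shifted along chromosomes in these libraries, so each member was set beside the median log2 fold change of its 50 nearest tested genes. These medians ran from -0.53 to 0.65 over the 50 members with a position, and 30 of them had the sign of the member. The medians beside the 14 members with a change of at least 2-fold were at most 0.53 in size. RAB30, RAB36, RAB3B, RAB26 and RAB32 had the opposite sign to their neighbours. With the regional median taken out, 8 members again fell and 6 rose by at least 2-fold, but not the same 8: RAB13 dropped to a log2 fold change of -0.88 and RAB17 moved to -1.02. RAB9A fell in a region of rising neighbours, with a log2 fold change of -0.34 against a neighbour median of 0.65.

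**Figure D4:**
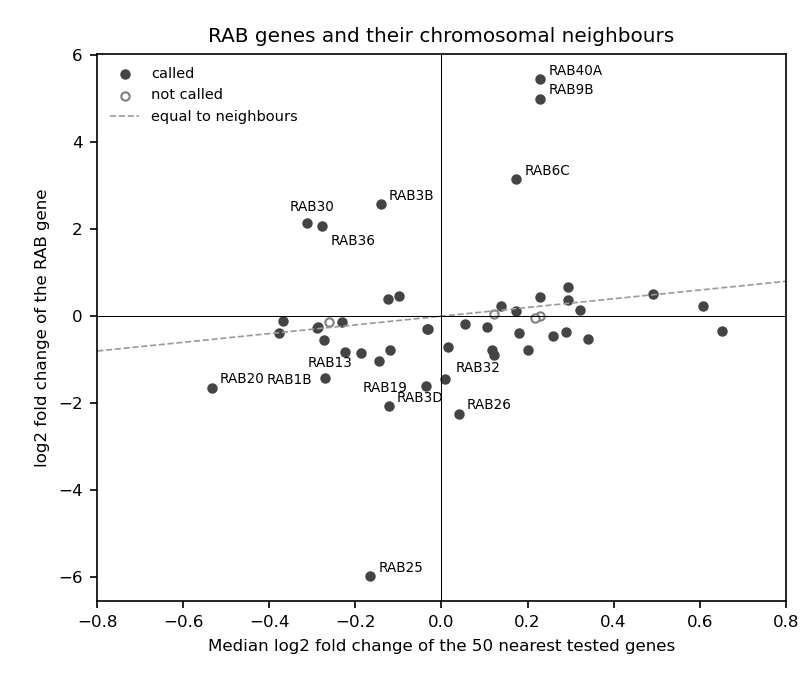
Log2 fold change of each tested RAB gene with a position (y axis) against the median of its 50 nearest tested genes (x axis), with a dashed line where both are equal. Members with a change of at least 2-fold are named and lie far from the line, RAB25 at -5.97 and RAB40A at 5.45.

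Genes that act on RAB proteins were taken as lists of exchange factors, GAPs, prenylation and GDI proteins, effectors, and the kinases and phosphatase of RABs. Of 40 tested exchange factor genes, 24 fell (60.0%) and 11 rose (27.5%), with a median log2 fold change of -0.30. All genes gave 37.7% lower, 39.4% higher and a median of 0.02, and no list was tested against them. RIN3, an exchange factor of RAB5, stood at 4.62, 4.63, 5.13 and 5.26 CPM in control libraries 1 to 4 and at 0.128, 0, 0 and 0.0925 CPM in knockdown libraries 1 to 4. With at most 3 counts in a knockdown library it was at least 36.2-fold lower, and its passing the filter through the controls alone fixed this direction. DENND1B, which activates RAB35, stood at 36.1, 37.4, 29.9 and 35.2 CPM in control libraries 1 to 4 and at 0.85, 0.86, 0.764 and 0.648 CPM in knockdown libraries 1 to 4. DENND2D stood at 138, 151, 141 and 139 CPM in control libraries 1 to 4 and at 9.99, 10.8, 9.62 and 11.4 CPM in knockdown libraries 1 to 4. Both were low in all knockdown libraries, with log2 fold changes of -5.46 (SE 0.116) and -3.77 (SE 0.0612). DENND3, an exchange factor of RAB12, rose from 0.633 CPM ± 0.179 to 13.6 CPM ± 0.592, 21.5-fold. Its control libraries 1 to 4 had 17, 9, 12 and 18 counts and would not have passed the filter alone, so its passing leaned on the knockdown libraries. RAB3IL1, which activates RAB3A and RAB8, rose from 2.02 CPM ± 0.205 to 6.6 CPM ± 0.783, and RIN1, a further RAB5 exchange factor, from 1.65 CPM ± 0.18 to 4.9 CPM ± 0.257.

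Of 39 tested GAP genes, 17 fell (43.6%) and 14 rose (35.9%), with a median of -0.03, against 37.7% and 39.4% of all genes. TBC1D2, a GAP of RAB7, fell from 27.1 CPM ± 1.96 to 4.12 CPM ± 0.398, and TBC1D16, a GAP of RAB4, from 126 CPM ± 9.27 to 28.2 CPM ± 1.41. TBC1D24 fell from 95.6 CPM ± 6.06 to 21.1 CPM ± 0.962. Their log2 fold changes were -2.71, -2.17 and -2.18. The largest rises by the naming rule were smaller: TBC1D8 at 1.01, TBC1D14, which acts in autophagy, at 0.67 and GRTP1 at 0.61. The falls among GAPs thus reached further than the rises among the genes named.

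The list of prenylation and GDI genes also holds RCE1, ICMT, PDE6D, RABIF and RABAC1. It gave 4 genes lower, 4 higher and 3 not past the threshold among 11 (median 0.03). That is 36.4% each way, against 37.7% and 39.4% of all genes. CHM and CHML are the 2 escort proteins that present RABs for prenylation. CHM fell from 22.4 CPM ± 2.39 to 15.7 CPM ± 0.691, while CHML rose from 39.2 CPM ± 6.82 to 140.5 CPM ± 7.7. CHML shares 373 bp of exons with OPN3 on the same strand, which had a mean of 2609 counts, so its level is uncertain. RABGGTA, the alpha subunit of the transferase, had 0.62 on the log2 scale, ICMT, which methylates the prenylated end, -0.78, and RABAC1, a membrane protein that binds RABs, -0.99. GDI2 rose from 431 CPM ± 9 to 635 CPM ± 12.1 (log2 fold change 0.56), which became -0.02 and was no longer called with the regional median taken out.

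Among effectors 42 genes were tested, of which 19 fell (45.2%) and 17 rose (40.5%), with a median of -0.05, against 37.7% and 39.4% of all genes. RAB11FIP5, which binds RAB11 and RAB25, stood at 35.1, 33.8, 36.9 and 32.7 CPM in control libraries 1 to 4 and at 3.78, 3.81, 4.07 and 4.21 CPM in knockdown libraries 1 to 4. Its fall of -3.13 on the log2 scale (SE 0.0534) was the only one of at least 2-fold in the list. RAB11FIP2, of the same family, rose from 10.4 CPM ± 1.78 to 21.4 CPM ± 1.52 (log2 fold change 1.04). BICD2, a dynein adaptor of RAB6, and GOLGA2, a Golgi matrix protein that binds RAB1, had -0.65 and -0.64. RILPL2, a binder of phosphorylated RABs, and MICAL1, an actin-oxidising effector, had 0.92 and 0.88. Outside the naming rule, and singled out after its values were seen, BICD1, a relative of BICD2, had 0, 1, 3 and 2 counts in control libraries 1 to 4 and 86, 102, 88 and 95 in knockdown libraries 1 to 4, and it passed the filter through the knockdown libraries alone.

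Of the enzymes that add or remove phosphate on RABs, LRRK1, LRRK2 and PPM1H were looked at. These 3 were lower, where 37.7% of all genes were, but the filter fixed the direction of LRRK2, which therefore adds nothing to this count. LRRK2, which phosphorylates RAB8A, RAB10 and others, had 57, 44, 42 and 54 counts in control libraries 1 to 4 and 3, 4, 2 and 4 in knockdown libraries 1 to 4. It passed the filter through its control libraries alone, so its direction was fixed once it had passed. PPM1H, a phosphatase that reverses this mark, stood at 129, 131, 126 and 129 CPM in control libraries 1 to 4 and at 10.2, 11.8, 13.7 and 12.3 CPM in knockdown libraries 1 to 4. It fell by 3.43 on the log2 scale. LRRK1, which phosphorylates RAB7A, fell from 34 CPM ± 0.884 to 11.5 CPM ± 0.845 (log2 fold change -1.57). None of the 3 had overlapping groups, which also held for 72.0% of all genes, and for LRRK2 the filter bears on this as well.

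**Figure D5:**
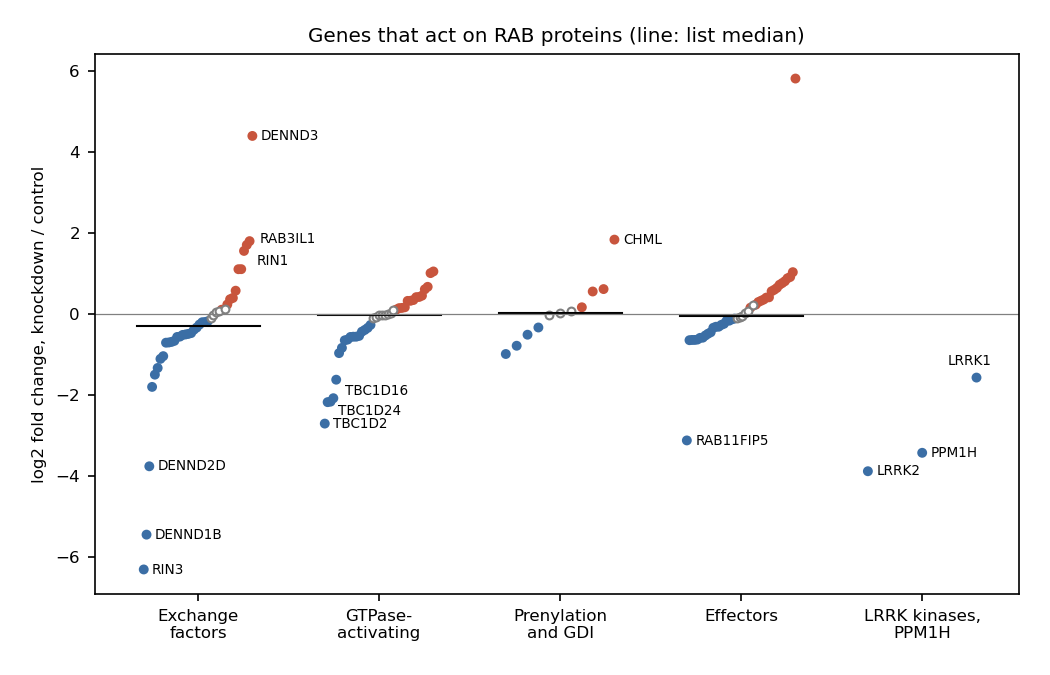
Log2 fold change (y axis, knockdown over control) of each tested gene in 5 lists of genes that act on RAB proteins, ordered within each list, filled where the adjusted p was under 0.05 and open where not, with a line at the median of the 4 longer lists. The unnamed effector near 5.8 is BICD1. Exchange factors span from RIN3 at -6.32 to DENND3 at 4.40, and the points of LRRK1, LRRK2 and PPM1H all lie below -1.5. RIN3 and LRRK2 had few counts in knockdown and DENND3 few in control.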

How the data were processed

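RNA extracted with Trizol was sequenced on an Illumina NextSeq as paired-end reads, per the labels' protocols. The authors deposited whole-number raw counts per gene. The submitters' processing notes name FastQC, Salmon 1.9, DESeq2 3.16 and the build hg38, with no role or order. Salmon estimates counts, so the deposited counts may be rounded estimates. The annotation used and the strand setting are not given in the sources used here.

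Counts were fitted in R 4.3.3 with edgeR 4.0.16 on the whole table: filterByExpr (minimum 10 counts, total 15), TMM factors from 0.965 to 1.04, robust quasi-likelihood test, and Benjamini-Hochberg adjustment over 16430 genes at 0.05. All adjusted p-values are from this test unless named. Fold changes use a prior count of 0.125, and SEs come from log2 CPM with 0.5 added to each count. A gene at 3 counts or fewer throughout a group gets a bound, computed against 3 counts per library, which covers counting error only. Exact permutation tests used all 70 divisions into 4 and 4. Positions, exon lengths and transcript words come from GENCODE 29 (GRCh38). The script was tested on simulated data. Alternatives used DESeq2 1.42.0 and limma 3.58.1 among others. Figures used Python 3.11.15 and matplotlib 3.10.9.

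Members were named in full where the adjusted p was under 0.05 and the change at least 1.5-fold, with their lettered relatives. Regulators were named as up to 3 largest rises and falls per list among called genes averaging 50 counts or more whose groups did not overlap, plus LRRK1, LRRK2 and PPM1H. The members and lists were chosen with earlier results of these data known. Library totals ran from 19087878 to 23786684 counts, and the biological coefficient of variation was 4.56%.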

Additional observations from a re-analysis of the deposited data

Results flagged for a closer look

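CPM values of each tested RAB row were searched for a lone library in either group, taking the gap to its nearest neighbour over the range and Dixon's 95% critical value for 4 samples. There were 7 such cases, and about 5.1 are given by chance, 1 in 20 groups. RAB26 was highest in control library 4, at 19.5 CPM against 17.7 to 17.8, a ratio of 0.949. RAB37 was lowest in control library 4, at 4.18 CPM against 4.75 to 4.81, a ratio of 0.9. RAB4B was highest in control library 3, at 9.5 CPM against 7.37 to 7.72, a ratio of 0.838. RAB5A was lowest in control library 3, at 55.8 CPM against 63.9 to 65.1, a ratio of 0.87. RAB5B was highest in knockdown library 4, at 195 CPM against 181 to 183, a ratio of 0.887. RAB8A was lowest in control library 4, at 61.8 CPM against 67.9 to 68.6, a ratio of 0.896. The annotated RAB9B had 2 counts in control library 1 and 0 in the other controls, a ratio of 1. Control library 4 gave 3 of these cases and control library 3 gave 2. Over the tested genes, pairs of libraries were also compared by chi-square per degree of freedom. Pairs of control library 3 with libraries 1, 2 and 4 gave 4.81, 5.46 and 6.21. The other control pairs lay between 2.16 and 2.38, and knockdown pairs between 2.87 and 4.02. No cause was tested.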

How the results depend on the processing

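Over 18 alternatives, 914 values of tested members were recomputed: 877 were labelled the same, 26 lost the call, 3 gained it and 8 were labelled as reversed. These 8 do not hold every change of sign. Among members not called, RAB43 ran from -0.367 to 0.365 and RAB31 from -0.016 to 0.017 with 1 library left out. The number of RAB genes called lower ranged from 28 to 30 and higher from 14 to 21. With no filter on low counts, 10 RAB genes rose at least 2-fold, against 6, and 49.4% of all 30434 genes were called in either direction. Leaving out 1 library at a time gave 30 lower and 14 to 18 higher. RAB31 became 0.083 (log2) when only library size was used for scaling. Once regional medians were subtracted, the log2 fold change became 0.26 for RAB6A, -0.18 for RAB18, 0.10 for RAB11A, 0.027 for RAB2B, -0.06 for RAB4A, -0.38 for RAB24, 0.01 for RAB33B and -0.02 for GDI2. Shares from counts not divided by length moved by -21.9 points for RAB3D, 11.8 for RAB5B, 3.15 for RAB6C and 6.15 for RAB11B, against -16.3, 6.82, 4.94 and 9.07, and RAB1B moved by -21.2 against -20.0. The cause of these changes was not tested, apart from what each alternative does by construction.

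The replicate numbers are shared by both groups, but same-numbered libraries did not deviate together (correlations from -0.0307 to 0.0563), and 1 of 4 correlated best with its own number. With the replicate number as a block, 30 RAB genes were lower and 16 higher. Members with few counts, RAB9B, RAB40A and the 9 below the filter, are limited by depth.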
